A study of Mus musculus with 6 samples.

Results

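The Krüppel-like factors (KLF proteins) are transcription factors that bind GC-rich and CACCC-type DNA through a C-terminal set of zinc fingers. This account covers 10 KLF genes, Klf1, Klf2, Klf3, Klf4, Klf6, Klf7, Klf9, Klf11, Klf13 and Klf16, in mouse fetal liver cells with and without induced Arid3a. They were taken as a named list of family members, and all 10 were found by symbol among the 53801 genes of the deposited count table. KLF1 drives the red cell programme, including adult beta-globin, and opposes the ETS factor FLI1, which favours megakaryocytes, the cells that make platelets. KLF1 also switches on KLF3, a repressor that recruits CtBP proteins and competes for the same CACCC elements. The other members have roles in quiescence, inflammation, hormone responses and TGF-beta signalling.

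Transcripts were sequenced in 3 libraries of cells that carried Arid3a-FLAG under doxycycline control and 3 libraries of cells that carried LUC in its place. ARID3A binds AT-rich DNA through its ARID domain. All 6 libraries came from fetal liver at E12.5-13.5 of a mouse strain on a B6J.129(Cg) background that carries Cas9 and EGFP at the ROSA26 locus, driven by the ubiquitous CAG promoter. All carried the guide sgGata1, were named for Gata1s (the short form of GATA1) and expressed miR-125b from a lentivirus. All were given doxycycline at 1 μg/mL for 48 h, the LUC cells included, so neither group is wild type for Gata1 or free of the microRNA. The labels do not say whether the libraries of a group came from separate embryos, transductions or cultures, and p-values measure the spread between these libraries.

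Library totals ran from 15728150 to 17011606 counts with Arid3a-FLAG and from 16605860 to 18249053 with LUC, and the Arid3a-FLAG construct had 2758 to 3348 counts against 0 in each LUC library. Megakaryocyte markers were abundant, with a summed level of 6624 to 7148 CPM (counts scaled to library size) with Arid3a-FLAG and 6505 to 8188 CPM with LUC. Erythroid markers were much lower, at 383 to 482 CPM with Arid3a-FLAG and 231 to 271 CPM with LUC, and Slc4a1, which encodes the red cell anion exchanger band 3, had 0 counts in every library. Hepatocyte markers summed to 16.3 to 20.4 CPM with Arid3a-FLAG and 20.3 to 27.3 CPM with LUC, and 4 of 10 (Fgb, Hnf4a, Serpina1a and Ttr) were at 0. Mast cell and basophil markers were also present, at 2152 to 2925 CPM with Arid3a-FLAG and 3018 to 3574 CPM with LUC. Of this, Gata2 alone averaged 1290 CPM with Arid3a-FLAG and 1202 CPM with LUC. It is also listed below among erythroid and megakaryocyte partner factors, so it is not particular to mast cells.

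The promoter of Klf1, the erythroid member, is shown here beside that of Klf3, the family member that KLF1 itself activates, because they differ in the motifs searched. RefSeq promoter entries (build GRCm38.p6, 250 bases before to 50 after each start) were found for 9 of the 10 genes, all but Klf16. Each was searched on both strands for GATAAG, the core read by GATA1, and for CCNCNCCC, a form of the CACCC and GC boxes read by KLF and SP proteins. The bases below end just before the start of the gene in GENCODE M21. Capitals mark the matches on either strand, and neighbouring CCNCNCCC matches in Klf3 overlap.
Klf1, chr8:84901732-84901927, plus strand: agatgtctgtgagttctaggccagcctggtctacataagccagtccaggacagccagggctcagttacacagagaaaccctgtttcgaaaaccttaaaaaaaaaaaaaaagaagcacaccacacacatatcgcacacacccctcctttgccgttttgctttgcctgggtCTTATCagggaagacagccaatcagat
Klf3, chr5:64803271-64803387, plus strand: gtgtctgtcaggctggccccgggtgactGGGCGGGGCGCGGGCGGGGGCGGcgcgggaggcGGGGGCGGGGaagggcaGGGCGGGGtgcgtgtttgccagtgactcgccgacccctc
GATAAG was found in 1 of 9 members' 300-base windows, that of Klf1, against 7.44% of all promoter entries, and 1 match among 9 does not set Klf1 apart from that background. Klf1 had no CCNCNCCC. Klf3 had 10 CCNCNCCC matches in its full window. In all, 7 of the 9 members held CCNCNCCC, which stood in 49.5% of all entries, and Klf1 and Klf9 did not. ATTAAA, an AT-rich motif of ARID3A, was found in 1 of 9 members, Klf6, against 13.9% of all entries, and CCGGAA, an ETS motif, in 0 of 9 against 14.9%. These are letter matches in a fixed window and not measured binding sites.

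No KLF gene changed past the threshold when Arid3a was induced. Of the 10 members, 9 had enough counts to be tested, and Klf4 did not. In edgeR's quasi-likelihood test, adjusted by the Benjamini-Hochberg method over 13631 genes with a threshold of 0.05, 0 of 9 rose and 0 of 9 fell, where 7.29% of all tested genes were called. DESeq2 and limma-voom also called 0. At an unadjusted p under 0.05 there were 2 of 9, Klf9 higher and Klf11 lower with Arid3a-FLAG, against 25.6% of all genes. The median size of the log2 fold change, ignoring sign, was 0.21 over the 9 members and 0.20 over all tested genes. The 95% interval lay within 2-fold either way for 7 of the 9 members and within 1.5-fold either way for 5. In bulk RNA, fewer cells of a type and less RNA per cell cannot be told apart.

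**Figure D1:**
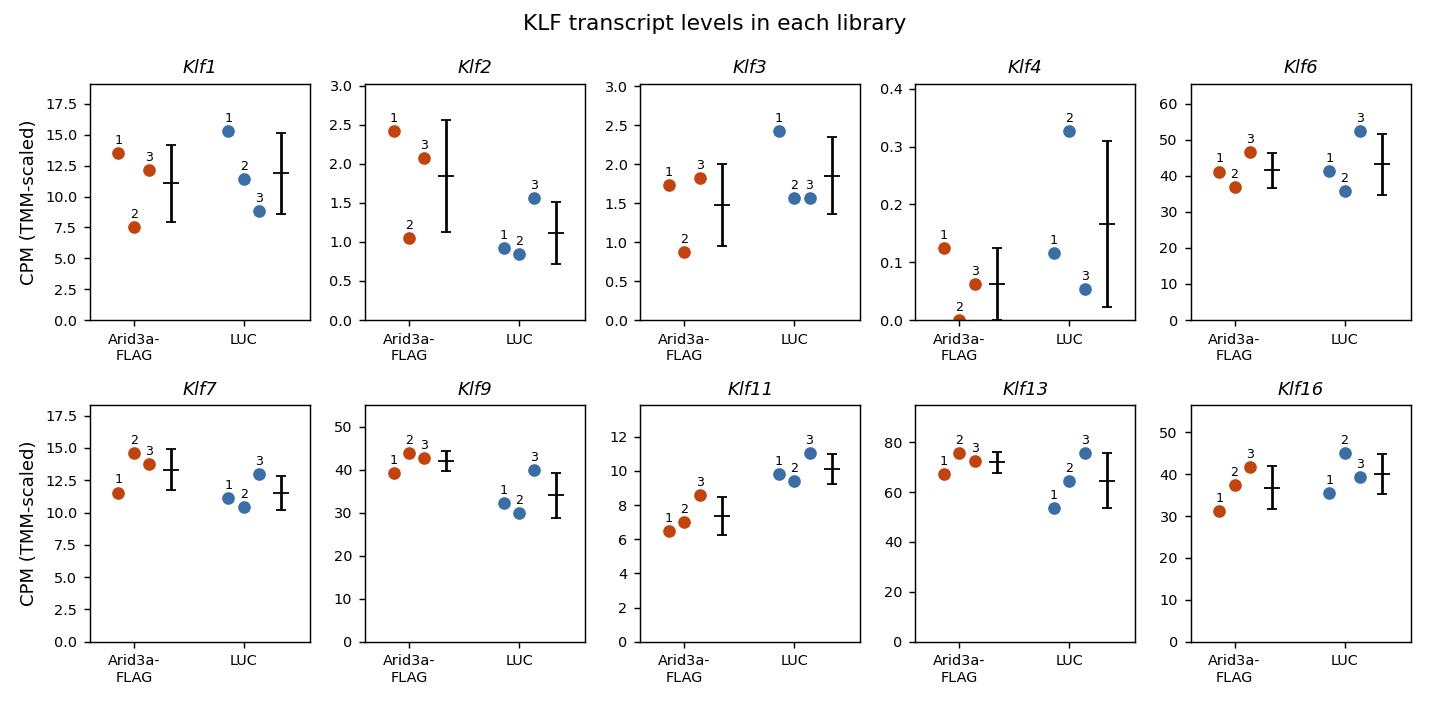
Level of each of the 10 KLF genes in CPM (TMM-scaled, vertical axes starting at 0) in the 3 Arid3a-FLAG libraries (orange, left) and the 3 LUC libraries (blue, right), with replicate numbers beside the points and black bars for mean ± SD. The groups overlap for 9 of the 10 genes, and for Klf11 every Arid3a-FLAG library lies below every LUC library.

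Klf1 (ENSMUSG00000054191, chromosome 8, 84901928 to 84905291, plus strand, mm10), the erythroid member, varied more between libraries of a group than between the groups. It had 13.5, 7.55 and 12.1 CPM in the Arid3a-FLAG libraries, against 15.3, 11.4 and 8.85 CPM in the LUC libraries. The groups overlapped in part, with Arid3a-FLAG library 2 the lowest of the 6 and LUC library 1 the highest. The means were 11.1 ± 3.13 CPM with Arid3a-FLAG and 11.9 ± 3.25 CPM with LUC (SD, n = 3 each), with -0.10 as log2 fold change (SE 0.24, 95% interval -0.64 to 0.44, edgeR adjusted p = 0.825). As a fold this interval ran from 0.641 to 1.35. Its direction depended on single libraries: the log2 fold change became 0.11 when Arid3a-FLAG library 2 was dropped and 0.15 when LUC library 1 was. The spread within each group, a coefficient of variation of 28.3% with Arid3a-FLAG and 27.4% with LUC, was well above the 7.45% and 7.05% that counting error alone would give at these counts.

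KLF1 and FLI1 favour opposite sides of the erythroid and megakaryocyte choice, so their transcripts were compared. Cell fate itself was not measured. Fli1 (chromosome 9, 32422204 to 32542861, minus strand) had 143, 144 and 131 CPM in the Arid3a-FLAG libraries, against 116, 123 and 123 CPM in the LUC libraries. All Arid3a-FLAG libraries lay above all LUC libraries, which held for 16.6% of tested genes, but the log2 fold change of 0.21 (SE 0.08, 95% interval 0.02 to 0.40) did not pass (edgeR adjusted p = 0.156). It passed without LUC library 2 (0.24, adjusted p = 0.0371). On the per-length scale Fli1 averaged 40.0 RPKM and Klf1 7.23 RPKM with Arid3a-FLAG, and 34.6 RPKM and 7.76 RPKM with LUC, so Fli1 was the more abundant transcript in both groups. The log2 ratio of Klf1 CPM to Fli1 CPM was -3.41, -4.25 and -3.43 in the Arid3a-FLAG libraries, against -2.92, -3.43 and -3.80 in the LUC libraries. It averaged -3.70 ± 0.48 with Arid3a-FLAG and -3.38 ± 0.44 with LUC, a difference of -0.32 that was smaller than the spread between libraries (exact permutation test, two-sided, p = 0.5, n = 3 each). With 3 libraries against 3 this exact test cannot go below p = 0.1. Dropping Arid3a-FLAG library 2 gave a difference of -0.04, dropping LUC library 1 gave -0.09, and dropping LUC library 3 gave -0.52.

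**Figure D2:**
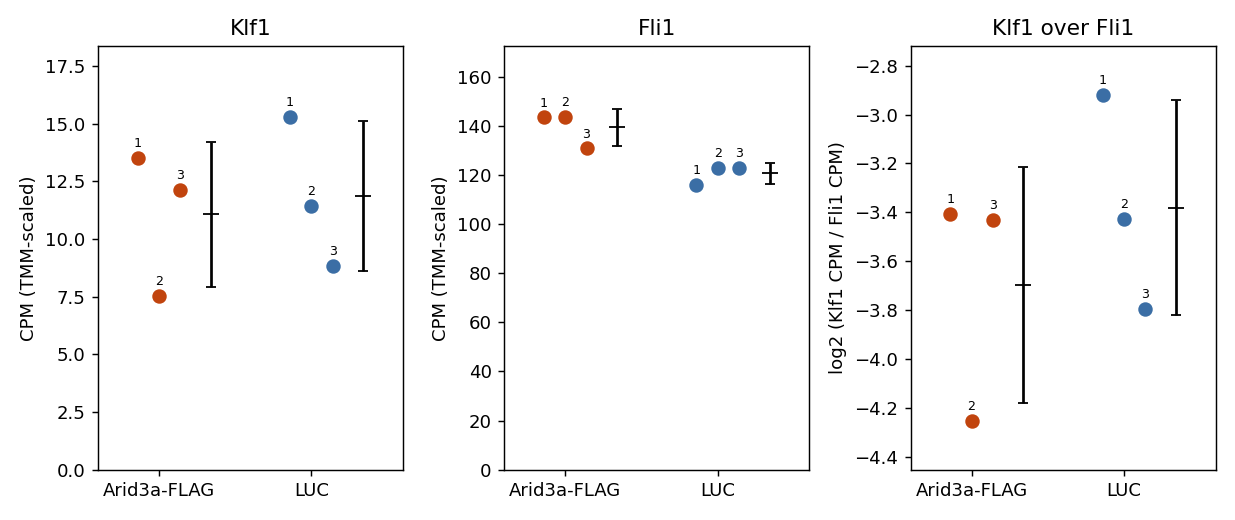
Klf1 (left) and Fli1 (middle) in CPM, and the log2 ratio of Klf1 CPM to Fli1 CPM (right), per library, with Arid3a-FLAG in orange and LUC in blue and black bars for mean ± SD (n = 3 each). Fli1 is above 130 CPM in each Arid3a-FLAG library and below 124 CPM in each LUC library, while Klf1 and the ratio overlap between the groups.

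Among the 9599 named genes of at least 5 CPM, those whose profile over the 6 libraries came nearest to that of Klf1 were Zfp60, Rfx2 and Ndufb2. Their root mean square distance to Klf1 in centred log2 CPM was 0.165, 0.167 and 0.173. None of these 3 genes passed the test either, with log2 fold changes of -0.07, -0.10 and -0.29. The distance was taken over all 6 libraries and says nothing of shared function.

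Klf3 (chromosome 5, 64803388 to 64832901, plus strand), the CtBP-recruiting repressor, was scarce. Its counts were 28, 15 and 29 in the Arid3a-FLAG libraries, against 42, 24 and 29 in the LUC libraries. This came to 1.48 ± 0.526 CPM with Arid3a-FLAG and 1.85 ± 0.496 CPM with LUC, with overlapping groups. The log2 fold change was -0.33 (95% interval -1.11 to 0.44, edgeR adjusted p = 0.584), an interval that reaches past a 2-fold fall. It shares 404 exonic bases with Gm20033 on the opposite strand, which itself had 0 to 5 counts in a library. The log2 fold change shrank to -0.06 when Arid3a-FLAG library 2 was dropped and to -0.07 when LUC library 1 was.

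Klf2 (chromosome 8, 72319033 to 72321656, plus strand) keeps lymphocytes and endothelium quiescent and contributes to embryonic globin expression. It had 2.42, 1.05 and 2.07 CPM in the Arid3a-FLAG libraries, against 0.925, 0.850 and 1.57 CPM in the LUC libraries. The Arid3a-FLAG libraries 1 and 3 were the highest, but library 2 lay below LUC library 3. Its log2 fold change of 0.71 was the largest among the members and rested on 18 to 39 counts with Arid3a-FLAG and 13 to 29 with LUC. It did not pass (SE 0.39, 95% interval -0.16 to 1.57, edgeR adjusted p = 0.281). The estimate ran from 0.46 without Arid3a-FLAG library 1 to 1.07 without LUC library 3, and it did not pass in either case (adjusted p = 0.611 and 0.163).

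Klf4 (chromosome 4, 55527143 to 55532466, minus strand), a pluripotency factor that also marks monocytes, was at the edge of detection. Its counts were 2, 0 and 1 in the Arid3a-FLAG libraries, against 2, 5 and 1 in the LUC libraries. No fold change is given at these counts.

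Klf6 and Klf7 are the members with broad activating roles. Klf6 (chromosome 13, 5861482 to 5870394, plus strand), an injury-responsive factor, had 41.2, 36.8 and 46.6 CPM in the Arid3a-FLAG libraries, against 41.2, 35.8 and 52.4 CPM in the LUC libraries. The LUC libraries spread more widely and took in the whole Arid3a-FLAG range, and the log2 fold change was -0.06 (95% interval -0.38 to 0.26, edgeR adjusted p = 0.831). Its direction also depended on single libraries, with 0.13 when LUC library 3 was dropped and 0.02 when Arid3a-FLAG library 2 was. Klf7 (chromosome 1, 64029447 to 64122282, minus strand), best known from neurons, had 11.5, 14.6 and 13.7 CPM in the Arid3a-FLAG libraries, against 11.2, 10.4 and 13.0 CPM in the LUC libraries. The groups overlapped, and the log2 fold change was 0.21 (95% interval -0.12 to 0.54, edgeR adjusted p = 0.415). Klf7 shares 3196 exonic bases with Gm26649 on the opposite strand, an entry at 0 counts in every library. Since it is not stated whether counting used the strand, reads of the pair cannot be told apart, and how shared reads were assigned is not given.

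Klf9, Klf11, Klf13 and Klf16 belong to the branch of the family that binds the SIN3A corepressor. Klf9 (chromosome 19, 23141226 to 23168134, plus strand), a repressor induced by glucocorticoid and thyroid hormone, had 39.4, 44.0 and 42.8 CPM in the Arid3a-FLAG libraries, against 32.2, 30.0 and 40.0 CPM in the LUC libraries. LUC library 3 reached into the Arid3a-FLAG range while the other LUC libraries lay below it. The log2 fold change was 0.30 (SE 0.12, 95% interval 0.03 to 0.57), and it did not pass (edgeR adjusted p = 0.151). Without LUC library 3 it was 0.46 and passed (adjusted p = 0.041), which made Klf9 the 1 member called in any of the fits made.

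Klf11 (chromosome 12, 24651274 to 24662789, plus strand), a TGF-beta-inducible repressor, had 6.46, 7.03 and 8.60 CPM in the Arid3a-FLAG libraries, against 9.82, 9.42 and 11.1 CPM in the LUC libraries. Its groups did not overlap, as for 1 of the 9 tested members, against 33.1% of all tested genes. By direction that is 1 of 9 lower with Arid3a-FLAG against 16.5% of all genes, and 0 of 9 higher against 16.6%. The means were 7.36 ± 1.11 CPM with Arid3a-FLAG and 10.1 ± 0.859 CPM with LUC, or -0.46 as log2 fold change (SE 0.16, 95% interval -0.82 to -0.09). The difference did not pass the threshold over all genes (edgeR unadjusted p = 0.0183, adjusted p = 0.116). With 1 library left out the adjusted p ran from 0.0656 to 0.329, always with a lower level in Arid3a-FLAG cells.

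Klf13 (chromosome 7, 63886351 to 63938915, minus strand), which activates the chemokine gene Ccl5 in T cells, had the most counts of the 10. It stood at 67.3, 75.8 and 72.6 CPM in the Arid3a-FLAG libraries, against 53.4, 64.4 and 75.6 CPM in the LUC libraries. LUC libraries 1 and 2 lay below the Arid3a-FLAG range and LUC library 3 within it, and the log2 fold change was 0.16 (95% interval -0.12 to 0.43, edgeR adjusted p = 0.457). Klf16 (chromosome 10, 80567124 to 80577321, minus strand), a repressor first described at dopamine receptor genes, had 31.3, 37.4 and 41.7 CPM in the Arid3a-FLAG libraries, against 35.5, 45.1 and 39.3 CPM in the LUC libraries. The groups overlapped here too, with a log2 fold change of -0.12 (95% interval -0.41 to 0.17, edgeR adjusted p = 0.604).

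**Figure D3:**
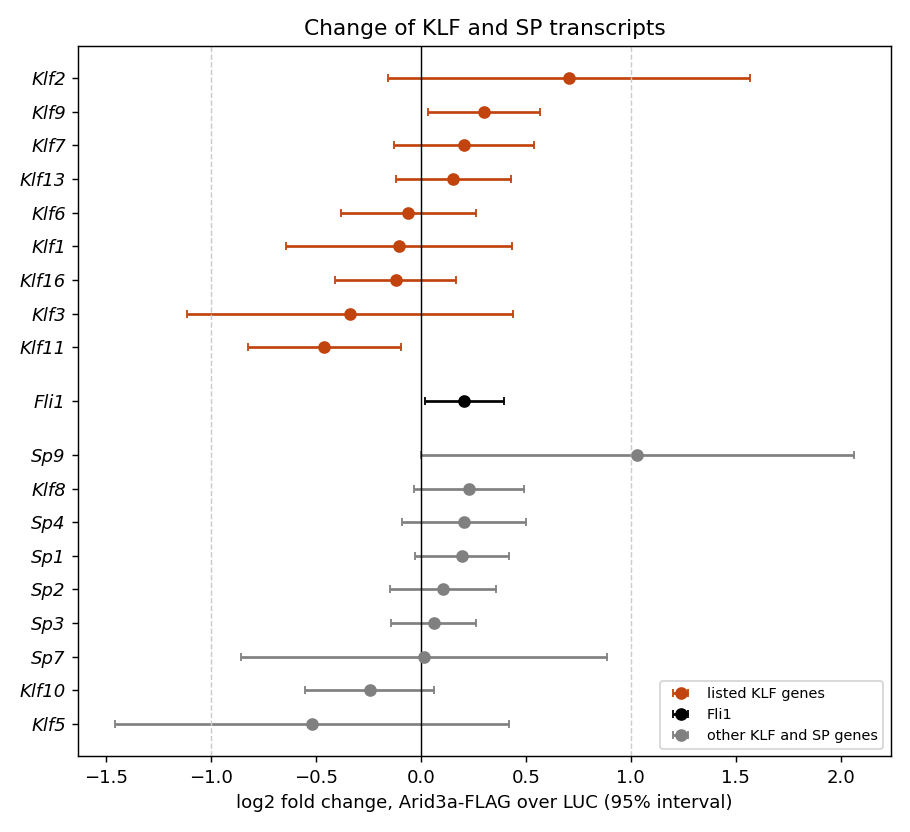
Log2 fold change (Arid3a-FLAG over LUC, horizontal axis) with its 95% interval for the 9 tested KLF members (orange), Fli1 (black) and the 9 other tested KLF and SP genes (grey), with dashed lines at 2-fold. The points of the listed members run from -0.46 for Klf11 to 0.71 for Klf2, and among these members the widest intervals belong to Klf2 and Klf3, which had the fewest counts.

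On the per-length scale, 5 members made up most of the KLF transcript pool in these cells. RPKM here is TMM-scaled CPM per kilobase of merged exons. Klf16 ranked first in both groups, at 13.8 ± 1.95 RPKM with Arid3a-FLAG and 15.0 ± 1.81 RPKM with LUC, and its lowest library lay above the highest of the next gene in each group. With Arid3a-FLAG, Klf13 (9.54 RPKM), Klf6 (9.45), Klf9 (8.73) and Klf1 (7.23) followed, and neighbours in this order overlapped in their ranges. With LUC the order of the same genes was Klf6 (9.83 RPKM), Klf13 (8.56), Klf1 (7.76) and Klf9 (7.07), again with overlapping neighbours. The exchange of places between groups is within that overlap.

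A wide gap separated these from the rest. Klf11 averaged 1.70 RPKM with Arid3a-FLAG and 2.33 RPKM with LUC, and Klf7 averaged 1.64 RPKM with Arid3a-FLAG and 1.42 RPKM with LUC. The ranges of Klf11 and Klf7 overlapped with Arid3a-FLAG and did not with LUC. Klf2 followed at 0.999 RPKM with Arid3a-FLAG and 0.603 RPKM with LUC, then Klf3 at 0.131 RPKM with Arid3a-FLAG and 0.165 RPKM with LUC, and Klf4 was last in both groups.

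The summed level of the 10 genes was 51.4, 50.6 and 57.6 RPKM in the Arid3a-FLAG libraries, against 50.9, 51.5 and 55.9 RPKM in the LUC libraries. The totals overlapped (exact permutation test, two-sided, p = 0.9, n = 3 each). As shares of that sum, Klf16 held 25.8% ± 2.69 with Arid3a-FLAG and 28.4% ± 3.80 with LUC. Klf9 held 16.5% ± 1.42 with Arid3a-FLAG and 13.4% ± 1.39 with LUC, and Klf11 3.18% ± 0.275 with Arid3a-FLAG and 4.41% ± 0.176 with LUC. These 2 shares were the ones with no overlap between groups, each at the smallest p that the exact permutation test allows, 0.1, or 0.5 after Benjamini-Hochberg adjustment over the 10 shares. The share of Klf1 was 13.6% ± 3.72 with Arid3a-FLAG and 14.9% ± 4.67 with LUC (exact permutation p = 0.7).

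**Figure D4:**
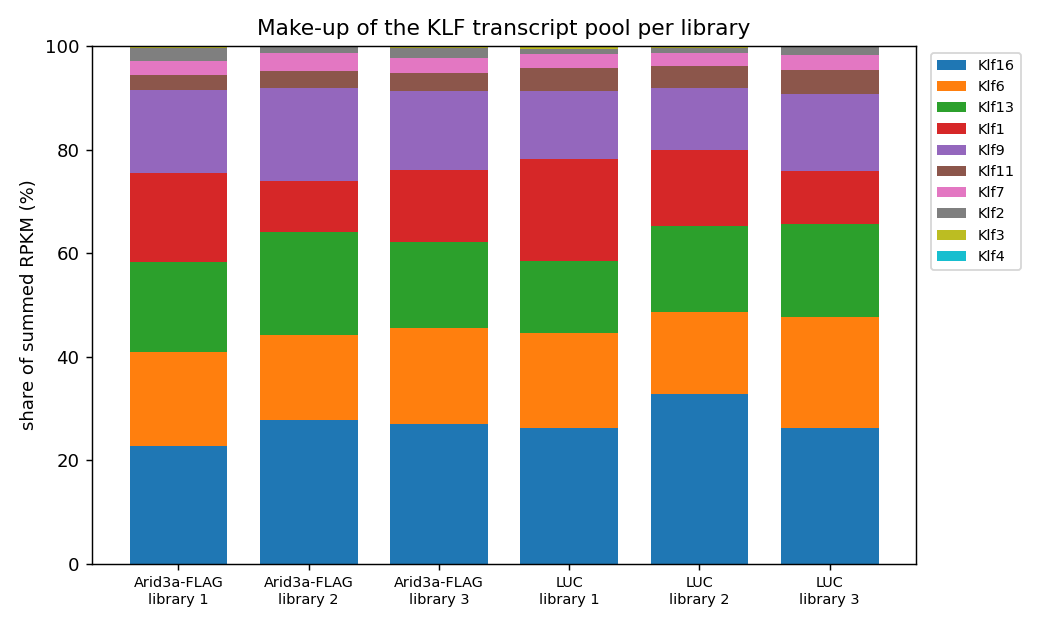
Share of each KLF gene in the summed RPKM of the 10 genes (percent, vertical axis from 0 to 100) in the 3 Arid3a-FLAG libraries (left) and the 3 LUC libraries (right). Klf16, Klf6, Klf13, Klf1 and Klf9 fill most of each bar, and the red Klf1 band runs from 9.76% in Arid3a-FLAG library 2 to 19.7% in LUC library 1.

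None of the remaining KLF and SP genes passed the test either. Of 16 further genes, 9 were tested, and edgeR called 0, against 7.29% of all tested genes (DESeq2 0, limma-voom 0). At an unadjusted p under 0.05 there was 1 of 9, against 25.6% of all genes. This was Sp9, which had 58 counts in all with Arid3a-FLAG and 29 with LUC. The median log2 fold change was 0.11, beside -0.03 over all tested genes. Sp1, the general GC-box activator, averaged 149 ± 5.18 CPM with Arid3a-FLAG and 130.1 ± 15.4 CPM with LUC. Klf10, the TGF-beta-inducible relative of Klf11, averaged 22.1 ± 4.08 CPM with Arid3a-FLAG and 26.2 ± 1.62 CPM with LUC, which gave -0.24 on the log2 scale (SE 0.14, edgeR adjusted p = 0.298). Klf12, Klf14, Klf17, Sp5, Sp6 and Sp8 had 0 counts in every library. The genes named here, and Klf8 further on, were chosen after their values were seen.

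Genes known as KLF1 targets in erythroid cells changed in both directions, while Klf1 did not pass. Of 30 listed genes, 20 were tested, 4 rose, 3 fell and 13 did not pass, where 3.43% of all tested genes were higher and 3.87% lower. Kel, a blood group protease, had 36.2, 33.6 and 34.6 CPM in the Arid3a-FLAG libraries, against 13.5, 9.29 and 11.98 CPM in the LUC libraries. It rose by 1.58 on the log2 scale (SE 0.14, edgeR adjusted p = 0.000239). Epb42, the membrane skeleton protein 4.2, averaged 7.20 ± 0.353 CPM with Arid3a-FLAG and 1.73 ± 0.252 CPM with LUC and rose by 2.05 (SE 0.20, adjusted p = 0.000434). In the other direction, Aqp1, which encodes a water channel, averaged 3.10 ± 0.435 CPM with Arid3a-FLAG and 6.71 ± 1.62 CPM with LUC and fell by 1.12 (edgeR adjusted p = 0.0192).

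When the libraries were dropped 1 at a time, Kel and Epb42 stayed past the threshold in 6 of 6 fits and Aqp1 in 2 (adjusted p up to 0.0965). The rises numbered 2 without Arid3a-FLAG library 1, Arid3a-FLAG library 3 or LUC library 1, and 6 without LUC library 2. The falls numbered 1 without Arid3a-FLAG library 1, Arid3a-FLAG library 2 or LUC library 1. The median log2 fold change of the 20 was 0.08, beside -0.03 over all tested genes. The adult beta-globin genes were detected and did not pass. Hbb-bt averaged 107 ± 13.7 CPM with Arid3a-FLAG and 89.3 ± 15.6 CPM with LUC (log2 fold change 0.26, edgeR adjusted p = 0.261), and it passed when LUC library 2 was dropped (0.42, adjusted p = 0.0124). Hbb-bs averaged 26.8 ± 7.83 CPM with Arid3a-FLAG and 16.3 ± 3.65 CPM with LUC (0.72, edgeR adjusted p = 0.0771). Hbb-bs passed in DESeq2 (adjusted p = 0.0151), and when Arid3a-FLAG library 2 or LUC library 2 was dropped (adjusted p = 0.0339 and 0.0178). It also passed without the low-count filter (adjusted p = 1.3e-05), a setting in which the 6 lists together held 17 rises against 11 in the main test. Hbb-bt and Hbb-bs are nearly identical paralogs, so the split of reads between them is uncertain, and both were named after their values were seen. Alas2, the erythroid haem synthesis enzyme, had 15 counts in all Arid3a-FLAG libraries and 16 in all LUC libraries, and Slc4a1, Icam4 and Tspo2 were at 0 in every library. The summed erythroid markers given above were higher in every Arid3a-FLAG library. Much of that sum came from Hba-a1, at 119 CPM with Arid3a-FLAG and 31.3 CPM with LUC, and Tfrc, at 170 and 127 CPM. Tfrc did not pass (edgeR adjusted p = 0.134), and both genes were named after their values were seen. Past the threshold, 3 of 7 tested markers were higher and 1 lower, against 3.43% and 3.87% of all tested genes. The part of a shift in cell types was not tested.

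Among listed megakaryocyte genes that FLI1 and GATA1 drive, those past the threshold were higher with Arid3a-FLAG. All 16 were tested, 5 rose, 0 fell and 11 did not pass (unadjusted p under 0.05 in 9 genes, none of them lower, and DESeq2 and limma-voom also called 0 lower). Itgb3, a chain of the platelet fibrinogen receptor, stood at 728 ± 39.5 CPM with Arid3a-FLAG and 372 ± 49.0 CPM with LUC and rose by 0.97 on the log2 scale (SE 0.11, edgeR adjusted p = 0.00103). Subunits of the von Willebrand factor receptor rose as well, Gp1bb by 0.82, Gp5 by 0.63 and Gp9 by 0.69 on the log2 scale. Gp1ba of the same receptor, named after its value was seen, did not pass (0.35, edgeR adjusted p = 0.110). Gp1bb shares 1902 exonic bases with Sept5 on its own strand and is therefore uncertain. Sept5 itself had 1038 to 1072 counts in the Arid3a-FLAG libraries and 574 to 612 in the LUC libraries. Without Arid3a-FLAG library 1 the rises numbered 3, and Gp9 was no longer called (adjusted p = 0.0795). The median log2 fold change of the 16 was 0.41, beside -0.03 over all tested genes. The summed level of the separate list of megakaryocyte markers overlapped between the groups. Its genes went both ways, with 2 of 10 higher and 1 lower past the threshold, against 3.43% and 3.87% of all tested genes. The lower one was Ppbp, a platelet chemokine gene, at 325 ± 35.8 CPM with Arid3a-FLAG and 655 ± 119 CPM with LUC (log2 fold change -1.01, edgeR adjusted p = 0.00299), and it was named after its value was seen.

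The listed erythroid and megakaryocyte partner factors showed 1 rise and 1 fall among 15 tested. Over all tested genes, 3.43% were higher and 3.87% lower. Tal1, a master regulator of blood formation, averaged 436 ± 5.48 CPM with Arid3a-FLAG and 335 ± 34.8 CPM with LUC, a rise of 0.38 on the log2 scale (edgeR adjusted p = 0.0444). Nfia averaged 6.03 ± 0.333 CPM with Arid3a-FLAG and 9.62 ± 1.77 CPM with LUC and fell by 0.68 (adjusted p = 0.0451). Neither call was firm: Tal1 was lost when any 1 Arid3a-FLAG library or LUC library 1 was dropped (adjusted p up to 0.179), and Nfia when any library but LUC library 2 was (up to 0.169). Dropping LUC library 2 gave 4 rises and 2 falls. Runx1 (log2 fold change 0.31, adjusted p = 0.105) and Myb (-0.32, adjusted p = 0.181) did not pass. The median of the 15 was 0.05.

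The list of KLF corepressors and coactivators also held Wwp1 and Fbxw7, which are neither. It gave 0 calls among 15 tested in edgeR, where 7.29% of all tested genes were called (DESeq2 1, limma-voom 0). At an unadjusted p under 0.05 there were 2 of 15, both higher, against 25.6% of all genes. Those 2 were the acetyltransferase gene Ep300, with a log2 fold change of 0.43 (adjusted p = 0.0782), and Ctbp1, a partner of KLF3, with 0.22 (adjusted p = 0.170). Dropping LUC library 2 gave 2 rises, and dropping LUC library 3 gave 1. The median of the 15 was -0.01.

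Reported targets of KLF2 and KLF4 gave 1 rise and 0 falls among 9 tested. Past the same threshold, 3.43% of all tested genes rose and 3.87% fell. The unadjusted edgeR p was below 0.05 for 3 of the 9, of which 1 was lower, against 25.6% of all genes. DESeq2 and limma-voom called 0 of the list lower. The list had 0 rises when Arid3a-FLAG library 2 or LUC library 1 was dropped, and 2 rises and 1 fall with LUC library 2 dropped. S1pr1, a KLF2 target of T cells, averaged 18.4 ± 2.21 CPM with Arid3a-FLAG and 13.2 ± 1.26 CPM with LUC and did not pass (log2 fold change 0.48, adjusted p = 0.0595). The cyclin gene Ccnd1 (-0.33, adjusted p = 0.0837) and Thbd (-0.32, adjusted p = 0.402), which encodes thrombomodulin, did not pass either. The median of the 9 was 0.02.

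Genes on a short list of possible KLF3 targets were mostly lower. Of 5 tested, 3 fell, 0 rose and 2 did not pass, where 3.87% of all tested genes were lower and 3.43% higher. At an unadjusted p under 0.05 there were 4, all lower, against 25.6% of all genes. DESeq2 and limma-voom also called 0 higher. The list was drawn up from general knowledge, and only C1qtnf12, Lgals3 and Klf8 are firmly known as genes that KLF3 represses. C1qtnf12, which encodes the hormone adipolin, had 20.6, 22.1 and 23.5 CPM in the Arid3a-FLAG libraries, against 34.6, 35.4 and 30.8 CPM in the LUC libraries. Every Arid3a-FLAG library lay below every LUC library, as for 16.5% of tested genes, and the log2 fold change was -0.61 (SE 0.11, edgeR adjusted p = 0.00954). Lgals3, which encodes galectin-3, averaged 21.2 ± 6.67 CPM with Arid3a-FLAG and 32.1 ± 3.92 CPM with LUC and did not pass (-0.60, adjusted p = 0.089).

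Klf8, the repressor relative of Klf3, was at 15.2 ± 0.286 CPM with Arid3a-FLAG and 12.9 ± 0.253 CPM with LUC. Every Arid3a-FLAG library lay above every LUC library, which held for 16.6% of tested genes, and Klf8 did not pass (log2 fold change 0.23, adjusted p = 0.252). The counts of Itgad, an integrin chain of myeloid cells, were 2, 1 and 2 in the Arid3a-FLAG libraries, against 15, 18 and 22 in the LUC libraries (log2 fold change -3.31, adjusted p = 0.00439). Its exons overlap those of other genes on both strands, so its value is uncertain. Egfl7, the host gene of miR-126, had a log2 fold change of -0.41 (adjusted p = 0.0377). Without Arid3a-FLAG library 1 or 2 the falls of this list numbered 1, the calls of C1qtnf12 and Egfl7 being lost (adjusted p up to 0.0716 and 0.171). The median of the 5 was -0.60, and Klf3 itself did not pass. Among mast cell and basophil markers, 3 of 9 tested were lower and 0 higher past the threshold, where 3.87% of all tested genes were lower. Of these 9, 4 had a log2 fold change above 0. Neutrophil markers had 2 of 3 tested lower, and monocyte and macrophage markers 1 higher and 1 lower of 8. Lymphoid markers had 3 of 3 tested lower and Rag1 at 0. They summed to 7.08 to 8.54 CPM with Arid3a-FLAG and 31.1 to 42.8 CPM with LUC. The part of these marker shifts in the result was not tested.

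**Figure D5:**
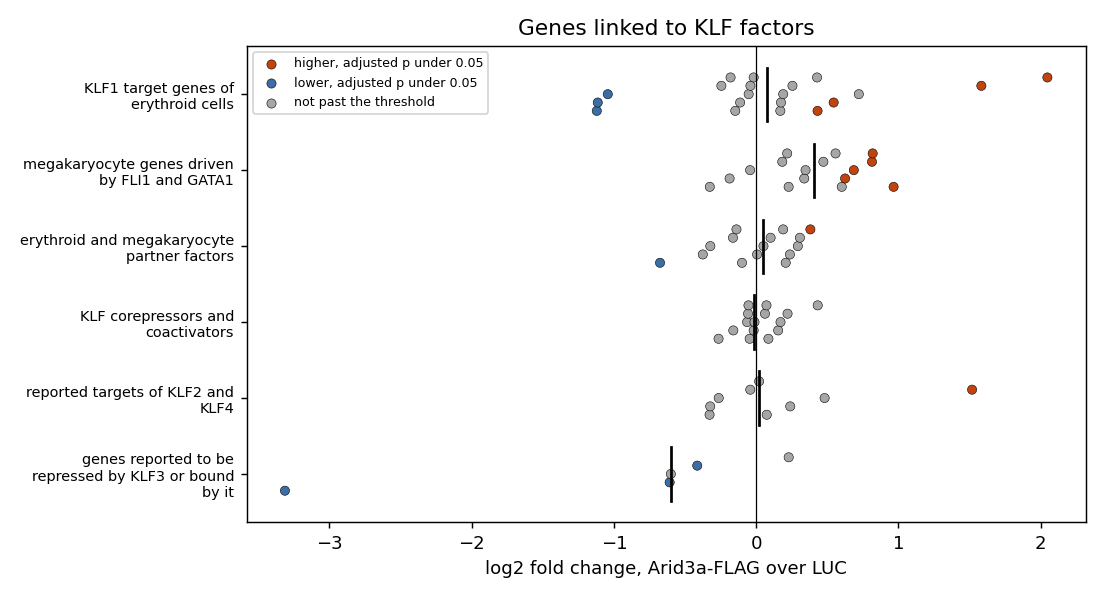
Log2 fold change (Arid3a-FLAG over LUC, horizontal axis) of each tested gene in 6 lists linked to KLF factors (rows), with orange points higher and blue points lower past an adjusted p of 0.05, grey points not past it, and black lines at the list medians. Called KLF1 targets stand on both sides of 0, from -1.12 for Aqp1 to 2.05 for Epb42, while the called megakaryocyte genes all lie above 0.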

How the data were processed

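The input was the authors' deposited table of raw counts, whole numbers without normalization, one column for each of 3 Arid3a-FLAG and 3 LUC libraries. Tools listed in the submitters' processing notes are fastp, HISAT2 2.0.5 and featureCounts, with mm10 as build. Annotation release and strand setting: not given in the sources used here. Columns were matched to samples by their descriptions. The entry for the Arid3a-FLAG construct was kept out of library sizes and tests. Symbols, coordinates and merged exon lengths came from GENCODE M21 (GRCm38, also called mm10), and 95 identifiers without a match (at most 0.017% of a library's counts) stayed in the tests unnamed.

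The test was edgeR 4.0.16 under R 4.3.3 (filterByExpr, TMM factors, glmQLFit and glmQLFTest, two-sided, group as the only term), with Benjamini-Hochberg adjustment over 13631 genes, and adjusted p-values come from it wherever no other tool is given. SE was taken as |log2 fold change| over the root of F, and errors of levels are SD over 3 libraries. CPM and RPKM were computed here with TMM-scaled totals. DESeq2 1.42.0 and limma-voom (limma 3.58.1) were alternatives, with RLE factors, no filter on low counts, at least 5 CPM in 3 libraries, the 20 most abundant genes left out, the replicate number as a block, and each library left out in turn. The same test was also tried on simulated counts with known changes.

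The members and gene lists were chosen with earlier results of these data known. Besides the members and Fli1, genes were named as up to 4 of each list by smallest p (2 risen and 2 fallen where a list had both), or 2 where none passed. Some genes that this rule names are not reported here, but they stay in the counts. One listed gene, Ahsp, and an older symbol of C1qtnf12 had no match in the annotation used.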

Additional observations from a re-analysis of the deposited data

How the results depend on the processing

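Of 115 refits of single members under the alternatives, 1 passed the threshold, that of Klf9 without LUC library 3, so 0 to 1 members were called higher when single libraries were left out. The number lower was 0 under every alternative, and the rest of the family gave 0 throughout. Over the 6 lists together, 11 genes rose and 7 fell. With no filter on low counts 17 rose, and at a minimum of 5 CPM in 3 libraries 3 fell. Leaving out single libraries gave 6 to 21 rises and 2 to 10 falls. The difference in the log2 ratio of Klf1 to Fli1 spanned -0.52 to -0.04 over the same omissions. The libraries of the 2 groups share replicate numbers, and deviations from the group means correlated at -0.09, -0.13 and 0.15 for numbers 1, 2 and 3. Libraries of unlike numbers correlated at -0.21 to 0.22. With 3 libraries in a group, these values show no pairing but cannot exclude it. With the replicate block 12 list genes rose and 6 fell (the partner factors Tal1 and Nfia were not called), 0 members were called, and the ratio differed by -0.32 (exact sign-flip test, p = 0.5). Klf2, Klf3 and Klf4 had at most 42 counts in a library, which limits what can be seen of them.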
